A study of Mus musculus with 12 samples.

Results

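Ciz1 and 9 genes that lie near it on mouse chromosome 2 were followed across 12 cerebella, 10 genes of the 22180 measured with a name of their own. The genes were 1110008P14Rik, Lcn2, Ptges2, Slc25a25, Dpm2 and St6galnac4 on one side of Ciz1 and Dnm1, Golga2 and Pomt1 on the other. Each of the 10 had exactly 1 row in the expression table with its symbol as the only symbol, so each is read from 1 probe set. The set was selected on measured values, the KO and WT levels of these same arrays, together with position on the chromosome. Differences between knockout and wild type are therefore given for it as a description, without a test, while the effects of sex and of sex on the knockout difference played no part in the choice and were tested.

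The tested animals were KO males and KO females, labelled Ciz1-/-, and the controls were WT males and WT females, with 3 mice and 3 whole-transcript Affymetrix arrays in each of the 4 groups. In the extraction protocol the mice are 10 months old and the controls Ciz1+/+, while the series design gives 6 to 10 months and the controls' genotype field reads Ciz1+/-. The deletion is described as germline in the series title, so every cell type of the tissue carries it. The sources used here do not say how the allele was made, which strain the mice were, or where the probes for Ciz1 lie relative to the change.

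Ciz1 encodes a nuclear zinc-finger protein that binds the cell cycle inhibitor p21 (gene Cdkn1a), takes part with cyclins in the start of DNA replication, and holds Xist RNA on the inactive X chromosome. The neighbours of Ciz1 have varied jobs in the cell, among them vesicle budding at synapses (Dnm1) and the matrix of the cis-Golgi (Golga2). Dpm2, Pomt1 and St6galnac4 act in sugar transfer in the endoplasmic reticulum and Golgi, Dpm2 and Pomt1 in the same pathway. What all the neighbours share is their place on the chromosome.

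In the order of genes in RefSeq, Ciz1 and 1110008P14Rik are next to each other with no annotated gene between them. Ciz1 is on the plus strand and 1110008P14Rik on the minus strand, so the pair are transcribed towards each other and their start sites lie at the outer ends. Lcn2 and then Ptges2 follow on the same side, and on the other side Dnm1, on the minus strand, points away from Ciz1. The RefSeq promoter windows of Ciz1, 1110008P14Rik and Ptges2, the 3 genes nearest Ciz1 in which KO and WT arrays did not overlap, are printed here because their transcripts are annotated to begin in them. Each runs from 250 bases before to 50 bases after an annotated start in build GRCm38.p6, 5′ to 3′ on the gene's own strand. Capitals mark a GC box (GGGCGG) or a CCAAT box (CCAAT), searched on both strands, and no marked motif overlaps another.
Ciz1 (chr2:32362760-32363059, plus strand): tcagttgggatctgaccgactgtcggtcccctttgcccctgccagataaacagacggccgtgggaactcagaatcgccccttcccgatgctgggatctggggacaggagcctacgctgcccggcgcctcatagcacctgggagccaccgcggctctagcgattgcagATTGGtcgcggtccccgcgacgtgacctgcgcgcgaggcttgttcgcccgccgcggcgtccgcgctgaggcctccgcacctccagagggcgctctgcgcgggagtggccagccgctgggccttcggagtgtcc
1110008P14Rik (chr2:32381866-32382165, minus strand): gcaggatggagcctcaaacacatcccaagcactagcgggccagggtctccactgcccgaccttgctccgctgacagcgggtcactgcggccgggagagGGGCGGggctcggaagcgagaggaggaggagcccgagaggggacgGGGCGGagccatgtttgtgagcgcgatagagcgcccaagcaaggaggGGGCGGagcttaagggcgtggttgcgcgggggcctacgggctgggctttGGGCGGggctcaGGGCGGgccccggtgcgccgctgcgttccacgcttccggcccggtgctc
Ptges2 (chr2:32395640-32395939, plus strand): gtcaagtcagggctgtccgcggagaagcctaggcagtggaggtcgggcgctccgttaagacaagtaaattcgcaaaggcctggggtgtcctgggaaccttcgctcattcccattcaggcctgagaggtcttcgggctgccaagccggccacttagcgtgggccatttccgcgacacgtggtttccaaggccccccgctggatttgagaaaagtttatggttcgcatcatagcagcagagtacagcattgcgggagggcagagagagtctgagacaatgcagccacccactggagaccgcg

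The window of 1110008P14Rik held 5 GC boxes and 29 CG dinucleotides, and 12.9% of the 32851 RefSeq mouse promoter windows had at least as many CG dinucleotides. The Ciz1 window held 33 CG dinucleotides, a count reached by 8.56% of windows, with 1 CCAAT box on the opposite strand and 0 GC boxes. A second annotated Ciz1 start, whose window overlaps the first, held 1 GC box. The Ptges2 window held 18 CG dinucleotides and neither motif. Over all RefSeq windows, 35.7% held a GC box, 37.4% a CCAAT box and 13.6% a TATA box (TATAAA), and the 10 genes had a TATA box in 0 of their 13 windows. Of the 10 genes, 8 had a GC box and 4 a CCAAT box in at least 1 window. These counts are per gene, so they cannot be set against the shares per window. These matches describe the annotated sequence and were not read for any factor's binding, and the sources used here do not say whether the altered allele keeps this sequence.

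The 12 arrays resembled each other closely, with Pearson correlations of 0.992 to 0.995 between any pair over all genes. The KO females stood apart on the leading principal component of all genes (16.0% of the variance), at 10.7 to 16.0, against -9.09 to 2.36 in KO males, -1.24 to 3.54 in WT females and -12.2 to -7.48 in WT males, so differences are also given within males. Values are log2 of the deposited intensity, and the 95th percentile of 1105 olfactory receptor genes, which are mostly silent in brain, was 6.47 on this scale. Tissue identity was checked with 11 markers of cerebellar neurons, whose mean level was 11.2 to 11.3 in every array, and 7 markers of forebrain and liver, whose mean was 5.78 to 5.99. Oligodendrocyte markers (14 genes) averaged 8.82 to 9.20 in KO males and 8.78 to 8.87 in KO females, against 9.08 to 9.25 in WT males and 9.13 to 9.27 in WT females. Among them Mbp, the myelin basic protein gene, stood at 9.42 to 9.71 in KO males and 9.49 to 9.66 in KO females, against 9.69 to 9.84 in WT males and 9.69 to 9.94 in WT females. The 16 choroid plexus markers, from tissue that lies against the cerebellum, averaged 6.38 to 7.15 in KO males and 6.26 to 7.35 in KO females, against 6.65 to 7.77 in WT males and 6.41 to 7.62 in WT females. Their most abundant gene, Ttr, which encodes the thyroid hormone carrier transthyretin, varied widely within each group, at 9.40 to 12.87 in KO males and 7.59 to 13.11 in KO females, against 11.13 to 13.33 in WT males and 8.88 to 13.32 in WT females. In bulk tissue, fewer cells of a type and less RNA per cell cannot be told apart.

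Ciz1 itself was lower in every KO array than in any WT array. It stood at 7.26, 6.82 and 7.10 in KO males and 7.31, 7.17 and 7.09 in KO females, against 8.73, 8.73 and 8.72 in WT males and 8.90, 8.70 and 8.80 in WT females. On the linear scale of the deposited values this was an intensity of 141 ± 16.3 in KO mice and 435 ± 23.5 in WT mice (SD, n = 6 each). The difference, KO minus WT, was -1.64 on the log2 scale (SE 0.07), the largest in either direction among the 22180 genes, with -1.67 within males. Some signal was left: all 6 KO arrays stood above the 95th percentile of olfactory receptor genes. Within the groups the WT males were unusually close together, and KO male replicate 2 was the lowest of the 12 arrays.

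1110008P14Rik, the gene whose transcript runs towards the end of Ciz1 and which is still listed under a clone name, was higher in every KO array than in any WT array. It stood at 9.76, 9.86 and 9.82 in KO males and 10.14, 9.96 and 10.15 in KO females, against 9.08, 8.95 and 9.11 in WT males and 9.28, 9.17 and 9.18 in WT females. The intensity was 992 ± 114 in KO mice and 561 ± 43.4 in WT mice (SD, n = 6 each), a log2 difference of 0.82 (SE 0.05) or 1.76-fold. A difference of this size or more in either direction was seen in 6 of the 22180 genes, itself included. Within males alone the difference was 0.76, and in females 0.87, each with an SE of 0.07. When the mean of the choroid plexus markers was added to the model, an alternative chosen after seeing the data, the difference was 0.80 (SE 0.05), and that of Ciz1 was -1.68 (SE 0.07). The part of the oligodendrocyte markers, lowest in KO females, was not tested.

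**Figure D1:**
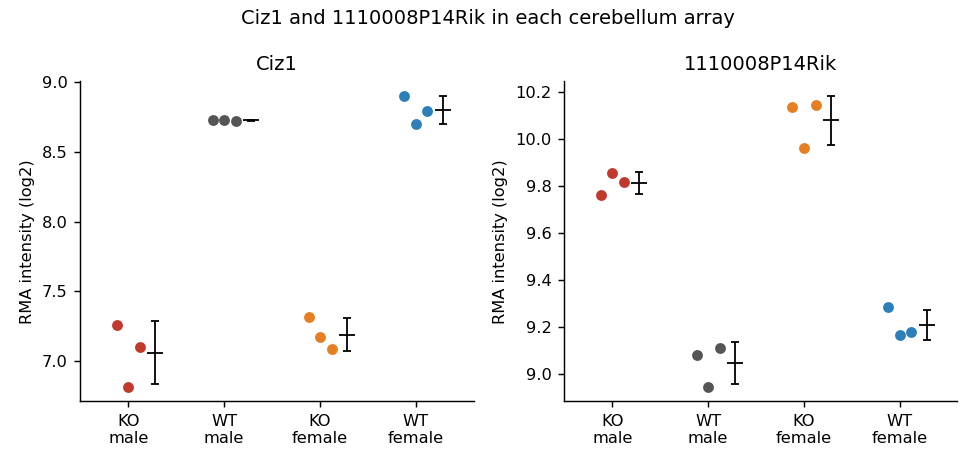
Log2 RMA intensity of Ciz1 (left panel) and of 1110008P14Rik (right panel) in each of the 12 arrays, 3 points a group, with the group mean and SD as a bar beside the points. The KO arrays of Ciz1 lie between 6.82 and 7.31 and the WT arrays between 8.70 and 8.90, and for 1110008P14Rik the KO arrays lie between 9.76 and 10.15 and the WT arrays between 8.95 and 9.28.

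The next gene on that side, Lcn2, encodes lipocalin 2, a secreted protein that binds iron-carrying siderophores and is induced in inflammation. It stood at 6.39, 7.43 and 7.11 in KO males and 6.60, 6.53 and 6.59 in KO females, against 6.25, 6.11 and 6.66 in WT males and 6.53, 6.65 and 6.21 in WT females. Only KO male replicates 2 and 3 exceeded all WT arrays, and in females the KO arrays lay within the range of the WT arrays. The difference over both sexes was 0.37 (SE 0.16), made of 0.64 in males and 0.11 in females (SE 0.22 each), and it was 0.26 without KO male replicate 2 and 0.52 without KO male replicate 1. Lcn2 was the most variable of the 10 genes, with a within-group SD of 0.32, above that of 97.9% of all genes. It was also the dimmest relative to background: 5 of 6 KO arrays and 3 of 6 WT arrays exceeded the 95th percentile of olfactory receptor genes.

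Other cells that make Lcn2 were looked at beside it. Neutrophil and blood markers (8 genes) averaged 5.77, 5.91 and 5.62 in KO male replicates 1, 2 and 3, against 5.54 to 5.71 in WT males. KO male replicate 2, the array highest in Lcn2, was also the highest of the 12 in this list, while replicate 3, the second highest in Lcn2, lay within the WT male range. In females the list averaged 5.63 to 5.73 in KO arrays, against 5.63 to 5.82 in WT arrays. Microglia markers (12 genes) averaged 7.51, 7.75 and 7.67 in KO male replicates 1, 2 and 3, against 7.51 to 7.55 in WT males. KO males 2 and 3 were thus above all WT males there, as in Lcn2. In females they averaged 7.60 to 7.72 in KO arrays, against 7.51 to 7.71 in WT arrays. The 13 endothelium and meninges markers averaged 8.02, 8.27 and 7.92 in the same 3 KO males, against 8.11 or less in WT males, with KO male replicate 2 the highest of the 12 arrays. In females this list averaged 7.92 to 8.26 in KO arrays, against 8.01 to 8.10 in WT arrays. KO female replicate 2, at 8.26 in this list, was the lowest KO female in Lcn2. The 12 reactive astrocyte markers other than Lcn2 averaged 7.34 to 7.39 in KO males and 7.37 to 7.44 in KO females, against 7.34 to 7.39 in WT males and 7.30 to 7.40 in WT females, with overlapping ranges. Among them Gfap, the astrocyte filament gene, stood at 8.99 to 9.27 in KO males and 9.08 to 9.32 in KO females, against 9.28 to 9.45 in WT males and 9.04 to 9.34 in WT females. Their part in the Lcn2 values was not tested.

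Ptges2, a membrane-bound prostaglandin E synthase, followed Lcn2 in the order. Its level was 7.63, 7.74 and 7.71 in KO males and 7.91, 7.72 and 7.71 in KO females, against 7.56, 7.59 and 7.43 in WT males and 7.46, 7.33 and 7.52 in WT females. All 6 KO arrays lay above all 6 WT arrays, although KO male replicate 1 cleared the highest WT male by a small margin. The log2 difference was 0.25 (SE 0.05), or 1.19-fold, with 0.34 in females and 0.17 in males (SE 0.08 each). A difference of at least this size was seen in 2.05% of all genes.

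Slc25a25, which encodes a calcium-regulated mitochondrial carrier of ATP-magnesium and phosphate, lay between Ptges2 and the genes that follow and showed no such separation. It stood at 7.72, 7.65 and 7.80 in KO males and 7.94, 7.76 and 7.97 in KO females, against 7.79, 7.65 and 7.76 in WT males and 7.88, 7.65 and 7.80 in WT females. The groups overlapped in both sexes and the difference was 0.05 (SE 0.06), with -0.01 in males.

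Dpm2 and St6galnac4, further along on the same side, had small differences with little spread. Dpm2, a subunit of the enzyme that makes dolichol phosphate mannose, stood at 9.47, 9.34 and 9.43 in KO males and 9.44, 9.38 and 9.57 in KO females, against 9.23, 9.26 and 9.27 in WT males and 9.34, 9.30 and 9.24 in WT females. St6galnac4, which adds sialic acid to O-linked glycans, stood at 9.22, 9.25 and 9.26 in KO males and 9.36, 9.38 and 9.28 in KO females, against 9.12, 9.18 and 9.19 in WT males and 9.18, 9.08 and 9.14 in WT females. In both genes every KO array was above every WT array, by a margin close to 0 at the nearest pair. The differences were 0.17 (SE 0.05) for Dpm2 and 0.14 (SE 0.04) for St6galnac4, with 0.16 in males for Dpm2 and 0.08 in males for St6galnac4. A difference at least as large as that of Dpm2 was seen in 7.93% of all genes, and as that of St6galnac4 in 12.1%. The within-group SD of St6galnac4, 0.04, was lower than that of all but 2.80% of genes.

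On the other side of Ciz1, KO and WT arrays overlapped over both sexes in Dnm1, Golga2 and Pomt1, as they did in Lcn2 and Slc25a25. Dnm1, the neuronal dynamin that pinches vesicles from the membrane, stood at 11.56, 11.58 and 11.52 in KO males and 11.60, 11.50 and 11.56 in KO females, against 11.47, 11.48 and 11.51 in WT males and 11.56, 11.46 and 11.57 in WT females. Its groups were separate in males and overlapped in females, with a difference of 0.04 (SE 0.04) over both and 0.07 in males.

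Golga2, which encodes the cis-Golgi matrix protein golgin A2, stood at 8.45, 8.37 and 8.48 in KO males and 8.30, 8.38 and 8.43 in KO females, against 8.44, 8.51 and 8.36 in WT males and 8.40, 8.42 and 8.27 in WT females, a difference of 0.00 (SE 0.05). Pomt1, which uses dolichol phosphate mannose to start O-mannose chains on dystroglycan, stood at 7.86, 7.88 and 7.96 in KO males and 7.90, 7.92 and 7.86 in KO females, against 7.64, 7.83 and 7.75 in WT males and 7.91, 7.69 and 7.57 in WT females. Here 1 WT array, WT female replicate 1, lay among the KO arrays and the other 5 lay below them all. The difference of Pomt1 was 0.17 (SE 0.06), with 0.16 in males. It lay between 0.13 and 0.21 without 1 array. The largest value, 0.21 (SE 0.05), was without WT female replicate 1 and the smallest, 0.13 (SE 0.06), without WT female replicate 3.

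**Figure D2:**
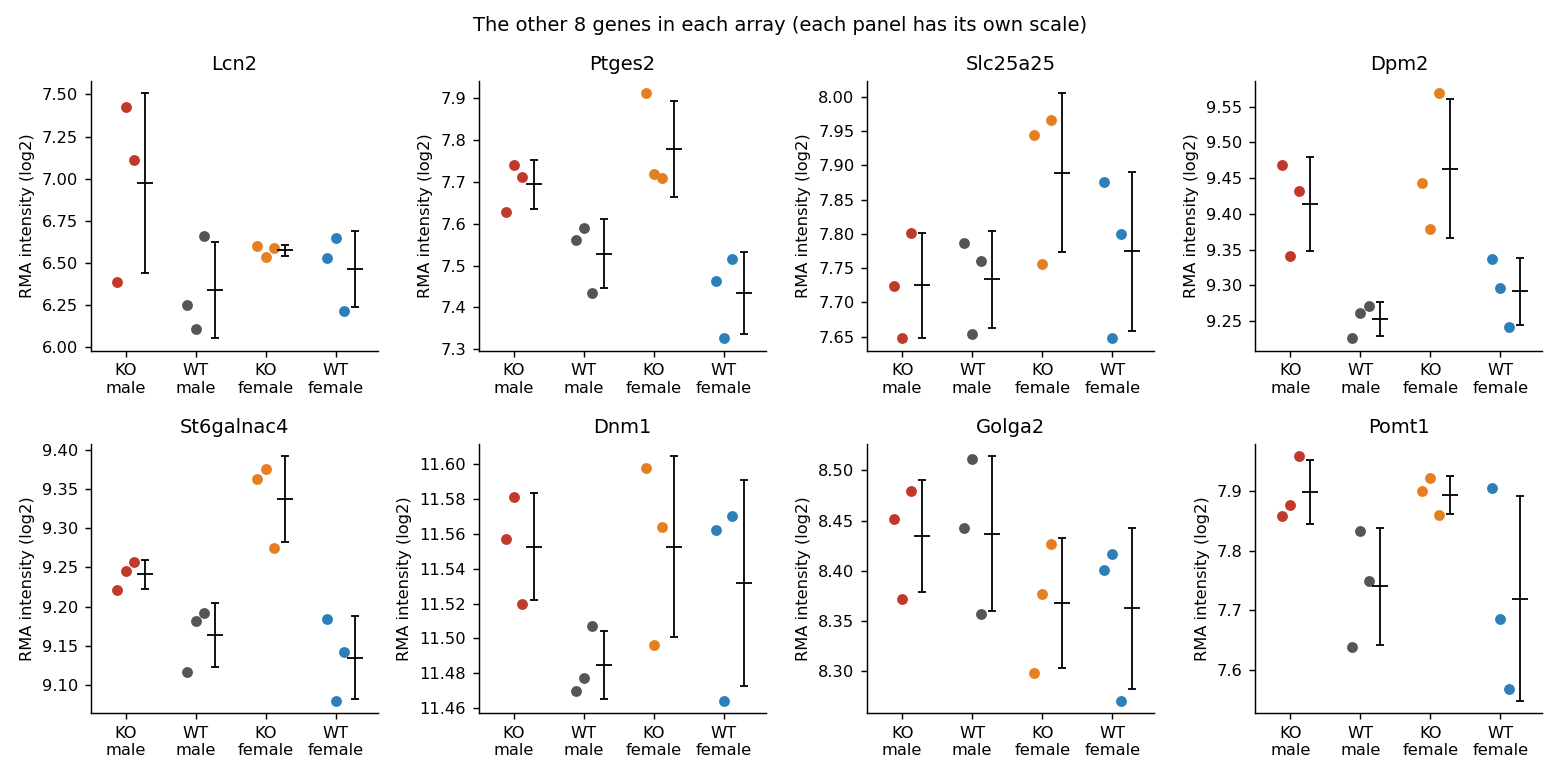
Log2 RMA intensity of the other 8 genes in each of the 12 arrays, 3 points a group, with the group mean and SD as a bar beside the points; each panel has its own scale. The KO arrays lie above the WT arrays of the same sex in both sexes for Ptges2, Dpm2 and St6galnac4, and Lcn2 is spread most in KO males, between 6.39 and 7.43.

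Counted together, KO and WT arrays were separate in 5 of the 10 genes, 1 lower (Ciz1) and 4 higher in KO (1110008P14Rik, Ptges2, Dpm2 and St6galnac4), where 0.55% of all genes had separate arrays, 0.32% higher and 0.23% lower. Genes separate over all arrays are by necessity also separate within each sex in 1 direction. No other of the 10 was separate within both sexes, and the share over all genes was 1.36%. In limma's fit over all genes, 2 of the 10, Ciz1 and 1110008P14Rik, were past an adjusted p of 0.05, against 0.0225% of all genes, 0.00902% higher and 0.0135% lower. Because the 10 genes were picked with these values known, nothing is read from any of these counts. The median difference of the 10 was 0.15, against -0.00 over all genes, and the 9 neighbours lay between 0.00 and 0.82.

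The genes around them that were not picked are what remains once the set was selected on KO and WT values, so they are described and not used as a yardstick for it. Among the 25 nearest tested genes on each side of Ciz1, 41 were not in the set of 10. Of these, 0 passed the test (limma, adjusted over all genes), against 0.0225% of all genes. An unadjusted p under 0.05 was found in 2, or 4.88%, against 9.26% of all genes. Separate KO and WT arrays were found in 0, against 0.55% of all genes. The differences of the 41 ran from -0.12 to 0.14 with a median of -0.01, and 19 were above 0 and 22 below. The smallest p-values belonged to Qrfp, a neuropeptide precursor gene (-0.11, SE 0.05; limma adjusted p = 0.50), Eng, an endothelial receptor of the TGF-beta family (0.12, SE 0.05; limma adjusted p = 0.521), and Sh2d3c, an adaptor protein gene (-0.12, SE 0.06; limma adjusted p = 0.57).

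The differences along the gene order are listed here, and no trend is read from them because the set was picked on these values. From the first to the tenth tested gene after Ciz1 the differences were 0.82 in 1110008P14Rik, 0.37 in Lcn2, 0.25 in Ptges2, 0.05 in Slc25a25, 0.09 in Naif1, -0.06 in Fam102a, 0.17 in Dpm2, 0.09 in Pip5kl1, 0.14 in St6galnac4 and 0.06 in St6galnac6. On the other side the first tested entry was Mir199b, a microRNA gene inside Dnm1, at 3.22 to 4.12 in KO arrays and 3.42 to 3.99 in WT arrays, all under the 95th percentile of olfactory receptor genes. Its difference was -0.11 (SE 0.11). After it came Dnm1 at 0.04, Golga2 at 0.00, Swi5 at 0.11, Uck1 at -0.01 and Pomt1 at 0.17. The gene directly before Ciz1 in RefSeq, the noncoding Gm39787, had no tested row and was not analysed here.

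**Figure D3:**
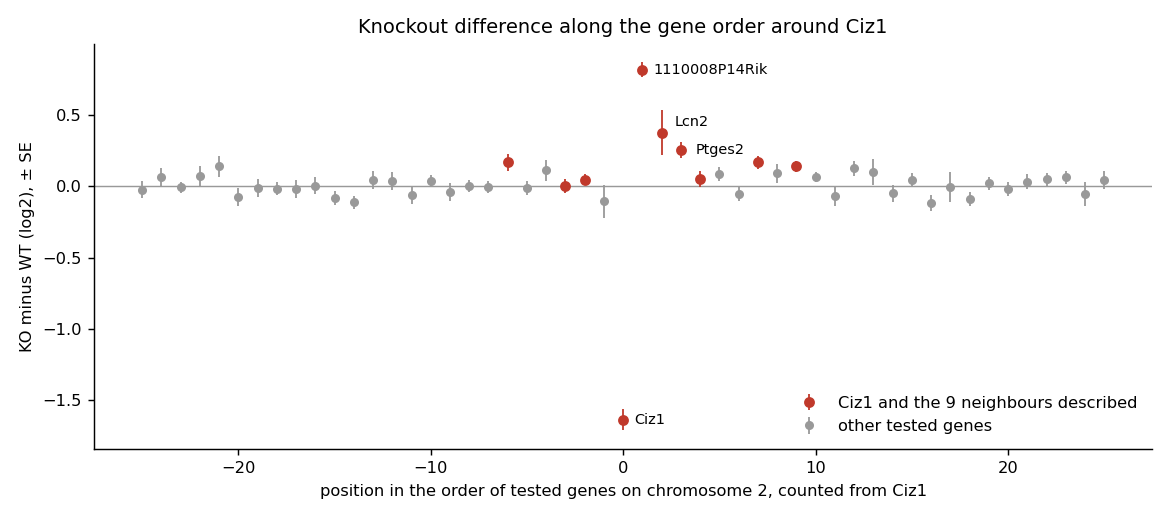
Difference between KO and WT (log2, points with SE bars) for Ciz1 and the 25 nearest tested genes on each side, against their position in the gene order of chromosome 2. Ciz1 at -1.64 and 1110008P14Rik at 0.82 stand apart, and the 41 genes in grey lie between -0.12 and 0.14.

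Whether the knockout difference depended on sex was tested as an interaction, the difference in females minus the difference in males. In limma's fit 0 of the 10 genes passed, 0 had an unadjusted p under 0.05, and adjusted p-values were 0.998 to 0.999. The call rate over all genes was 0%, with 1070 genes, or 4.82%, at an unadjusted p under 0.05. For Ciz1 the difference was -1.61 in females and -1.67 in males, an interaction of 0.06 (SE 0.15). For 1110008P14Rik the interaction was 0.11 (SE 0.10). Lcn2 had the widest estimate, -0.53 (SE 0.32; limma adjusted p = 0.998), with the larger KO difference in males. It depended on single arrays, at -0.82 (SE 0.22) without KO male replicate 1 and -0.30 (SE 0.28) without KO male replicate 2. Ptges2 followed with 0.18 (SE 0.11), the larger difference being in females. Its interaction stood at 0.11 without KO female replicate 1 and at 0.23 without WT male replicate 3. The SE of Lcn2 is such that a sizeable difference between the sexes could not be told from 0 with 3 mice a group.

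**Figure D4:**
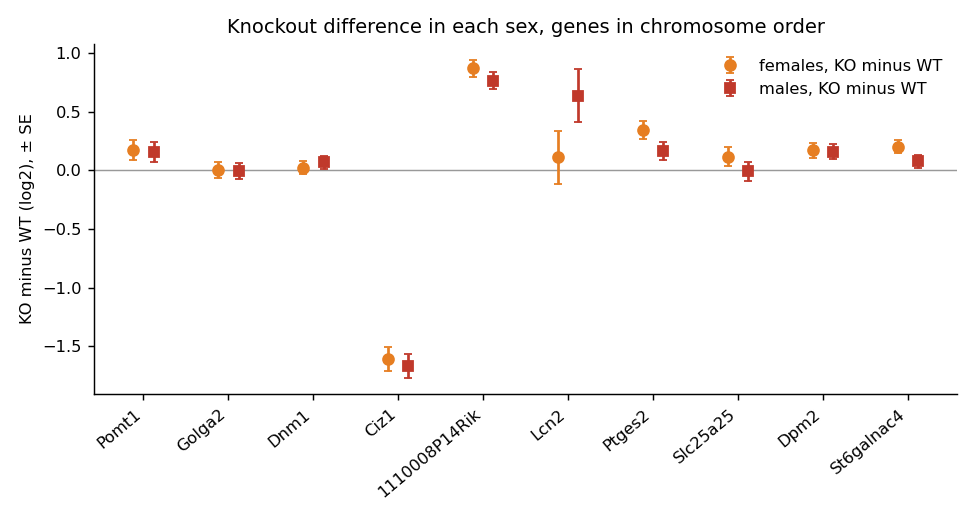
Difference between KO and WT (log2, with SE bars) within females (circles) and within males (squares) for the 10 genes, in chromosome order. The bars of the sexes overlap or nearly meet for Ciz1, at -1.61 in females and -1.67 in males, and 1110008P14Rik, at 0.87 and 0.76 in the same order, while Lcn2 was at 0.11 in females and 0.64 in males.

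Sex by itself, averaged over genotype, was tested too. Of the 10 genes 0 passed in limma, where 0.0361% of all genes did. An unadjusted p under 0.05 was found in 1 of the 10, against 7.93% of all genes. That gene was 1110008P14Rik, higher in females by 0.22 (SE 0.05; limma unadjusted p = 0.0012, adjusted p = 0.475). Its KO females, at 9.96 to 10.15, lay above the KO males, at 9.76 to 9.86, and its WT females, at 9.17 to 9.28, lay above the WT males, at 8.95 to 9.11. Females were above males without overlap in both genotypes in 0.451% of all genes. The difference did not pass over all genes, so the sexes were not shown to differ. Slc25a25 differed by 0.10 (SE 0.06), Ciz1 by 0.10 (SE 0.07), Golga2 by -0.07 (SE 0.05) and Lcn2 by -0.14 (SE 0.16), females minus males. The other 5 genes lay between -0.01 and 0.04.

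How the genes varied among mice of one group was described by the Pearson correlation of deviations from the 4 group means over the 12 arrays, which share their normalization and tissue make-up. Between Ciz1 and 1110008P14Rik it was -0.07. Among the 10 genes, Slc25a25 was closest to 1110008P14Rik (0.73) and Lcn2 lay farthest from Ciz1 (-0.66). Over all genes, 348 were at least as close to 1110008P14Rik, Slc25a25 included. Ciz1 and Lcn2 were both spread most in the 3 KO males (SD 0.23 and 0.53). Over all genes the closest to Ciz1 were Gm19665 (0.96), Ybey (0.95) and Plag1 (0.95), and the closest to 1110008P14Rik were Cox6a1 (0.96), Sall2 (0.94) and Ppp1r13l (0.93). The highest of so many correlations over 12 arrays are large in any table of this size, and no p is given.

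Genes listed as partners of Ciz1 or of its neighbours were examined as 139 tested genes in 8 lists, leaving out the 10. No list was made for 1110008P14Rik. In limma's fit of KO against WT 0 of 139 passed, against 0.0225% of all genes, and 14, or 10.1%, had an unadjusted p under 0.05, against 9.26% of all genes. The median difference was -0.01, with 62 genes above 0 and 77 below.

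Among partners of Ciz1 in replication and Xist anchoring, 0 of 20 passed and the median was -0.01. Hnrnpu, a nuclear scaffold protein that also binds Xist, differed by -0.14 (SE 0.05; limma adjusted p = 0.44), at 11.10 to 11.41 in KO arrays and 11.29 to 11.47 in WT arrays. Cdkn1a, which encodes p21, differed by 0.31 (SE 0.12; limma adjusted p = 0.499), at 8.99 to 9.84 in KO arrays and 8.71 to 9.22 in WT arrays. Both overlapped between the genotypes.

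In the endocytosis machinery that acts with dynamin 0 of 27 genes passed, with a median of 0.00. The endophilins Sh3gl1 and Sh3gl3, which bend membrane at budding vesicles, had the smallest p-values, with differences of 0.13 (SE 0.05) and -0.19 (SE 0.08). Of the cis-Golgi genes around Golga2, 0 of 18 passed and 0 had an unadjusted p under 0.05. Uso1, a tether that binds golgin A2, differed by -0.09 (SE 0.05), and Gorasp2, a Golgi stacking protein gene, by 0.08 (SE 0.04).

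In the list made around the dolichol phosphate mannose and O-mannose pathway of Dpm2 and Pomt1, 0 of 16 other genes passed and the median was -0.00. Sdf2l1, an endoplasmic reticulum protein placed in this list, differed by 0.43 (SE 0.08; limma adjusted p = 0.154), with 0.85 in females and 0.01 in males. Whether Sdf2l1 acts in the pathway was not examined. Sdf2l1 passed when limma's variance prior followed intensity (adjusted p = 0.0234) and when dimmer genes, those under the median brightness, were left out (adjusted p = 0.0331). Mpdu1, which is needed for the use of dolichol phosphate mannose, differed by 0.11 (SE 0.06).

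Of the sialyltransferases and sialic acid genes around St6galnac4, 0 of 23 passed, with a median of -0.01. St6galnac3 differed by -0.25 (SE 0.07; limma adjusted p = 0.316), at 7.20 to 7.60 in KO arrays and 7.49 to 7.69 in WT arrays, a sign opposite to that of St6galnac4. St8sia5, which adds sialic acid to gangliosides, differed by 0.10 (SE 0.04).

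In the prostaglandin E2 list around Ptges2 0 of 10 passed, with a median of 0.00. Slco2a1, a prostaglandin transporter, differed by 0.21 (SE 0.05; limma adjusted p = 0.248), and its KO arrays, at 8.91 to 9.11, lay above its WT arrays, at 8.69 to 8.90. The receptor gene Ptger2 differed by -0.17 (SE 0.08), at 5.10 to 5.40 in KO arrays and 5.06 to 5.61 in WT arrays, under the olfactory receptor percentile. Among receptors of lipocalin 2 and acute phase genes 0 of 16 passed, with a median of -0.03, and Fth1, the ferritin heavy chain, differed by -0.13 (SE 0.05) and Il6 by 0.16 (SE 0.07). Il6 lay at 3.98 to 4.31 in KO arrays and 3.72 to 4.13 in WT arrays, under the olfactory receptor percentile. Of the carriers related to Slc25a25, 0 of 9 passed and 0 had an unadjusted p under 0.05, with Slc25a12 at -0.07 (SE 0.04) and Slc25a42 at 0.06 (SE 0.04).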

How the data were processed

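RNA from 12 cerebella was measured on 1 array each. The authors deposited 1 RMA value per probe set, an intensity on a linear scale, from a core-exon run, per the labels. The submitters' processing notes name Affymetrix Expression Console and Transcriptome Analysis Console 3.0. The sources used here give no genome build for the array and no batch or scan date. RMA forces arrays to a common distribution, so differences are relative to the other genes.

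Log2 of each deposited intensity was taken, with no pseudocount and no filter. Of 41345 rows, 23521 carried 1 gene symbol in GEO's platform annotation, 1814 several and 16010 none. The row with the highest mean was kept per gene, which gave 22180 genes, of which 21994 matched RefSeq (GRCm38.p6) by gene ID. That table gave the gene order, and all 10 members matched RefSeq promoter windows, whose coordinates are those printed. Groups came from the source names, and replicates were numbered in accession order.

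limma 3.58.1 in R 4.3.3 fitted 4 group means with eBayes over all genes. Tests were two-sided with Benjamini-Hochberg adjustment and a threshold of 0.05, and SEs come from this fit. The fit was tested on simulated data. The number of arrays limits the precision. Per the labels' protocols, the arrays come from 6 KO mice and 6 controls. The members, the lists and the rules for naming genes were chosen with earlier results of these data known. Named were the 10 members, the 3 unpicked neighbours with the smallest p, the 2 genes per list with the smallest p, the 3 closest genes by correlation, the genes directly beside Ciz1, and the markers Ttr, Mbp and Gfap. The other genes up to 10 places from Ciz1 were named for their position, a choice made after their values were seen. Pcp2, a further marker, was not analysed here. Alternatives changed the row rule, filter, moderation, normalization, array weights, model, window and arrays used.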

Additional observations from a re-analysis of the deposited data

How the results depend on the processing

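For KO against WT the 10 genes were chosen on these same values, so the ranges that follow describe how far the differences move over 22 alternatives and are no evidence for them. The difference of Ciz1 was -1.69 to -1.58 without 1 array and -1.68 to -1.62 under the 10 other settings. That of 1110008P14Rik was 0.79 to 0.85 and 0.80 to 0.82. Lcn2 lay between 0.26 and 0.52 without 1 array and was not tested over genes above the median brightness, and its interaction with sex lay between -0.82 and -0.30 without 1 array. No member passed for sex or for the interaction under any alternative run. For KO against WT, 0 of the unpicked neighbours passed under any alternative with 25 genes a side. In the reported fit 0 passed with 10 or 50 genes a side. Of the partner genes, 0 of 139 passed in the reported fit, against 1 with an intensity trend and 1 over genes above the median brightness, Sdf2l1 in both; the filter tests fewer genes, and the cause was otherwise not tested. The choroid plexus covariate was chosen after seeing the data. No paired analysis was possible because the labels number no replicates. Groups of 3 arrays leave small differences undetectable.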
